A study of Mus musculus with 8 samples.

Results

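The hypoxia response of heart fibroblasts labelled Siah knockout was measured as the difference between cells kept at 1% O2 for 6 h and cells left in normoxia. It rested on 4 of the 8 samples of the series, 2 in hypoxia and 2 in normoxia, and on 17014 tested genes of the 24306 named on the array. The samples were taken by their titles, so no measured value chose them. The genes tested were those left after the dimmest 30% by mean over the 8 samples were removed, with the brightest spot for each gene. The cells were freshly isolated mouse heart fibroblasts grown in DMEM with 10% FBS, and total RNA was read on single-dye Agilent arrays. The groups used were Siah knockout cells in hypoxia, Siah knockout cells in normoxia, wild-type cells in hypoxia and wild-type cells in normoxia, with 2 samples each. The labels name Siah without saying which family member was deleted or how, and they give no strain, age or sex. The samples are described as biological replicates, but nothing says which share an animal or a culture, so the spread behind each p-value may be technical.

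Cells sense oxygen through prolyl hydroxylases of the Egln family, which mark the alpha subunits of the hypoxia-inducible factor (HIF) for binding by the von Hippel-Lindau protein (Vhl) and degradation. When oxygen is low the alpha subunits last, pair with Arnt and bind hypoxia response elements around the core ACGTG or GCGTG, and genes for glucose uptake, glycolysis, vessel growth and mitochondrial removal are switched on. Siah1 and Siah2 are RING ubiquitin ligases, and Siah2 is known to target Egln3 in hypoxia. In the heart, fibroblasts make and remodel collagen and are a source of vascular growth factors when oxygen falls.

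Values are deposited log2 intensities, on which a difference of 1 is a 2-fold change, and every fold change is hypoxia minus normoxia. All 16 fibroblast markers were above the level used to remove dim genes, and their mean log2 value was 12.59 and 12.73 in knockout cells in hypoxia, against 12.55 and 12.73 in normoxia. Macrophage and leukocyte markers were also present, 18 of 19 above that level. Their mean in knockout cells went with the replicate number, not with oxygen: 11.42 and 10.46 in hypoxia, against 11.33 and 10.44 in normoxia. Cell cycle genes had the same layout, at 10.47 and 9.94 in hypoxia and 10.43 and 9.81 in normoxia. Wild-type cells had higher macrophage and leukocyte means, 11.79 and 12.22 in hypoxia and 11.82 and 12.23 in normoxia. The part of this in the comparison of genotypes was not tested. Of the 15 cardiomyocyte markers, 5 were among the dim genes removed, and the mean of the other 10 was 6.09 and 6.02 in hypoxia, against 5.97 and 6.17 in normoxia. Smooth muscle and pericyte markers had means of 9.59 and 9.54 in knockout cells in hypoxia, against 8.86 and 9.47 in normoxia, where replicate 1 was the low sample. The fold change was above 0 for 7 of the 9 tested, its median was 0.52 in knockout cells and 0.03 in wild-type cells, and their part in the results below was not tested. The arrays read mixed RNA, in which fewer cells of a type and less RNA per cell cannot be told apart. Hypoxia replicate 1 stood somewhat apart: among genes with a mean of 8 or more, 23 lay at least 1 below the other 3 knockout samples and 16 at least 1 above them. The corresponding counts were 9 and 0 for hypoxia replicate 2, 16 and 3 for normoxia replicate 1, and 7 and 2 for normoxia replicate 2.

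**Figure D1:**
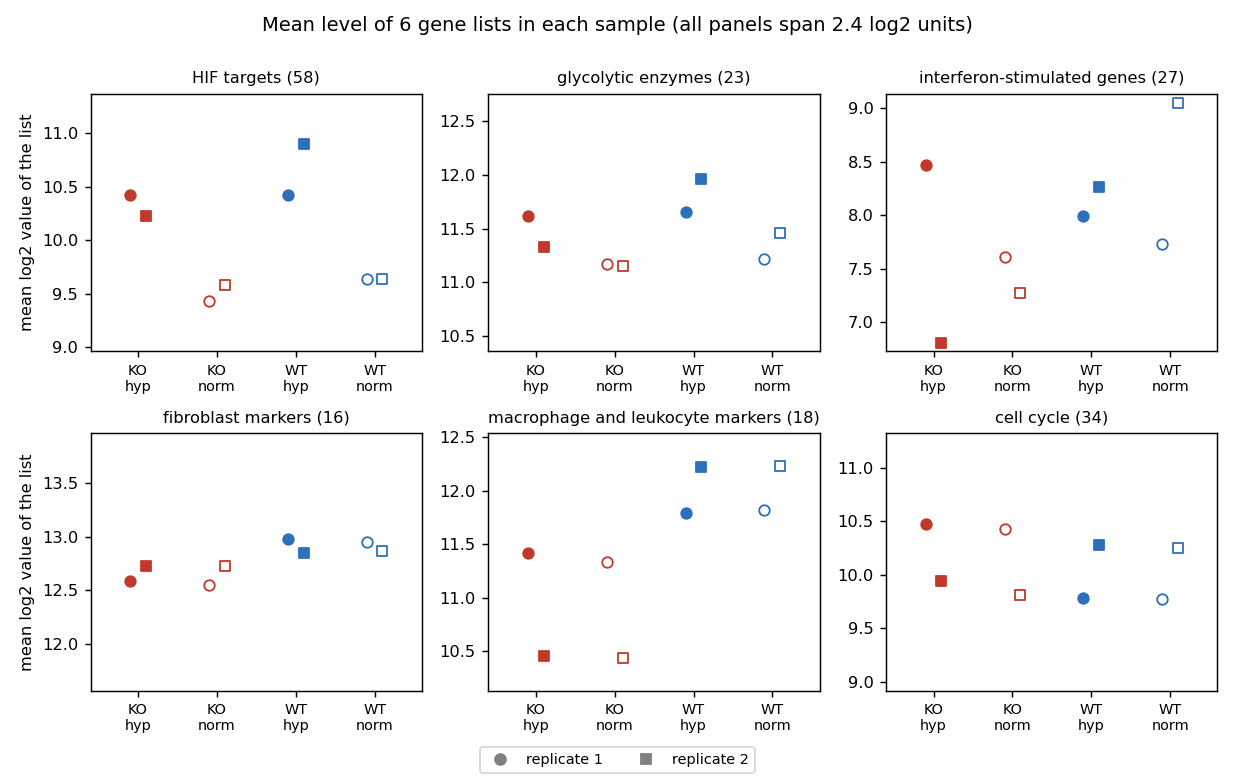
Mean log2 value (vertical axis) of the tested members of 6 gene lists in each sample, with knockout samples in red, wild-type samples in blue, hypoxia filled and normoxia open. HIF targets lie at 10.42 and 10.23 in knockout cells in hypoxia, above 9.43 and 9.58 in normoxia, while macrophage and cell cycle lists separate replicate 1 from replicate 2 in both oxygen conditions.

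No gene passed an adjusted p under 0.05 for hypoxia in knockout cells (0 of 17014, or 0%), and the smallest Benjamini-Hochberg adjusted p from limma was 1.00. At an unadjusted p under 0.05 there were 443 genes, or 2.60% of those tested, against 851 expected if no gene differed. Of these, 244 (1.43%) were higher in hypoxia and 199 (1.17%) were lower. The fit did not pair same-numbered samples, and the count of 443 became 870 when they were paired within genotype. The other fits gave between 0 and 7 called genes, and the 7 appeared only when hypoxia replicate 2 was left out. Over all genes the median log2 fold change was -0.02, the middle of the distribution ran from -0.15 to 0.14 between its quartiles, and 46.8% of genes were above 0. With 2 samples against 2, an exact permutation test of a single gene could not give a p below 0.333. Fold changes below are therefore descriptions of these 4 samples, with limma's standard error (SE). Single genes given with an SE had an unadjusted p under 0.05 unless stated otherwise, and the adjusted p of each named gene was 1.00.

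The higher and the lower ends differed in brightness. Among the 8173 genes with a mean log2 value of 8 or more, a split chosen after values were seen, 46 (0.563%) were higher at an unadjusted p under 0.05 and 12 (0.147%) were lower. Among the 4726 genes with a mean under 5, the counts were 136 (2.88%) and 144 (3.05%). Of the 46 bright genes higher in knockout cells, 37 were also higher at an unadjusted p under 0.05 in wild-type cells, where 1.03% of bright genes were. Of the 136 dim ones, 13 were, where 4.23% of dim genes were. The lower end was shared less: 2 of the 12 bright and 11 of the 144 dim lower genes were also lower in wild-type cells. At the same unadjusted p, 235 of the 17014 tested genes were lower in wild-type cells. Knockout and wild-type cells share no sample, but they share limma's estimate of each gene's spread.

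**Figure D2:**
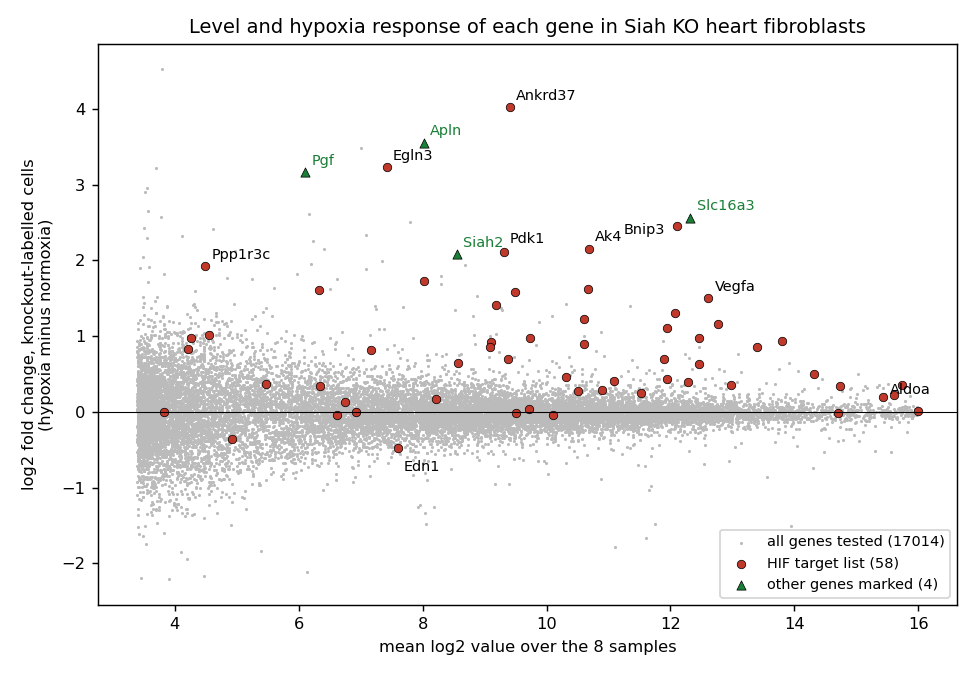
Log2 fold change in knockout cells (hypoxia minus normoxia, vertical axis) against the mean log2 value over the 8 samples (horizontal axis) for each of the 17014 tested genes. Grey points widen towards low means. Of the 58 HIF targets in red 51 lie above 0, with Ankrd37 at 4.02, and the 4 other genes in green lie above 0 as well.

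HIF targets were higher in hypoxia in knockout cells. Of 60 listed genes 58 were tested, and 51 of these had a positive log2 fold change, against 46.8% of all genes. Their median was 0.68, with quartiles of 0.25 and 1.15, against -0.02 over all genes. At an unadjusted p under 0.05, 21 of the 58 were higher and 0 lower, against 1.43% and 1.17% of all genes. In 35 of them both hypoxia samples lay above both normoxia samples, against 10.2% of all genes, and in 0 both lay below, against 11.4%. The median was 0.45 without hypoxia replicate 1 and between 0.63 and 0.76 without any other knockout sample. Another 58 spots of 27 of these genes lay above the dim level, and 51 of them were higher, with a median of 0.53.

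The promoters of the 4 HIF targets with the smallest unadjusted p are shown to place the HIF core motif next to the values that follow. Each is the 250 bases before the first listed transcription start in RefSeq, assembly GRCm38.p6, read 5′ to 3′ on the strand of the gene. Capitals mark ACGTG or GCGTG on either strand (CACGT or CACGC on the opposite one), and CACGTG counts on both. Bnip3 lies at chr7:138909507-138909756 on the minus strand, Ankrd37 at chr8:45999851-46000100 on the minus strand, Ak4 at chr4:101419039-101419288 on the plus strand and Egln3 at chr12:54203875-54204124 on the minus strand.
Bnip3: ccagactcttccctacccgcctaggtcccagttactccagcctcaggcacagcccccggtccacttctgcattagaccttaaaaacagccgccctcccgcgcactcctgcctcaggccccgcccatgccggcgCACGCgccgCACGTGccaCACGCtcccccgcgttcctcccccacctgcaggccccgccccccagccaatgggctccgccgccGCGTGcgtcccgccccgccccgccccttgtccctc
Ankrd37: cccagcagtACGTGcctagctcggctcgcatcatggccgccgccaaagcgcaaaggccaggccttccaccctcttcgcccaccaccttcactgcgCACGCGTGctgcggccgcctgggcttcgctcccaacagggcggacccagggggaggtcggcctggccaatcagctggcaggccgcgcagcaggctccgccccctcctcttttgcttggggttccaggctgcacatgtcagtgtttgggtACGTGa
Ak4: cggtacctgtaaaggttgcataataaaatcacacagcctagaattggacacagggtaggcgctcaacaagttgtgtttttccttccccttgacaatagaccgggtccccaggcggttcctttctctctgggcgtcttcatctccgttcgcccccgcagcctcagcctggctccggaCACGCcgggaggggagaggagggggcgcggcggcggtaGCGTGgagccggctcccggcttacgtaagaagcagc
Egln3: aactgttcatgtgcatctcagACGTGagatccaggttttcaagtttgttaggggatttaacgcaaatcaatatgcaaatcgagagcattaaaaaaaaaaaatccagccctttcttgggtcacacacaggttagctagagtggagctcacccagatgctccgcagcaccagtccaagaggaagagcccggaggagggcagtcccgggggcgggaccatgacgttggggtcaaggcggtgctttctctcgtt

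The Bnip3 stretch held 2 matches of ACGTG, which are the palindrome read on both strands, and 3 of GCGTG, while Ankrd37 held 2 of each. Ak4 had 0 matches of ACGTG and 2 of GCGTG, and Egln3 had 1 of ACGTG and 0 of GCGTG. Of the tested HIF targets, 49 had a promoter in the table, and 22 of these (44.9%) held ACGTG, against 19.7% of the 13533 promoters of all tested genes. With GCGTG included the shares were 67.3% and 50.3%. Among the HIF targets at an unadjusted p under 0.05, 11 of 20 promoters held ACGTG. A match is a run of letters and not a measured binding site, and the list was drawn up from known HIF targets.

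Ankrd37, an ankyrin repeat protein used as a marker of HIF activity, had the widest response on the list. Its log2 values were 11.14 and 11.73 in hypoxia, against 6.43 and 8.41 in normoxia, a log2 fold change of 4.02 (SE 0.69). The groups did not overlap, although the normoxia samples were far apart, and the fold change ran from 3.02 to 5.01 when 1 sample was left out. Bnip3, a mitochondrial outer membrane protein that recruits autophagosomes to mitochondria, had values of 13.29 and 12.60 in hypoxia and 10.54 and 10.45 in normoxia, a difference of 2.45 (SE 0.39). Both hypoxia samples were well above both normoxia samples. Its relative Bnip3l was at 12.34 and 11.70 in hypoxia, against 11.74 and 11.43 in normoxia, with overlapping groups and a difference of 0.43 (SE 0.31, p above 0.05). The other mitophagy and autophagy genes lay close to 0: the list's median was 0.10 over 19 genes, 1 of which was higher at an unadjusted p under 0.05 (1.43% of all genes). Parkin pathway kinase Pink1 differed by 0.12 and the cargo receptor Sqstm1 by -0.03.

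The oxygen-sensing machinery differed at a few of its genes. Egln3, the prolyl hydroxylase that is itself a HIF target, was at 8.36 and 8.81 in hypoxia, against 4.50 and 6.22 in normoxia, a difference of 3.23 (SE 0.58). Egln1, the main prolyl hydroxylase for HIF-1 alpha, was at 12.50 and 12.33 in hypoxia and 12.10 and 11.94 in normoxia, and Egln2 differed by -0.09. Egln1's groups did not overlap, at a difference of 0.40 (SE 0.22, p above 0.05). Vhl, the recognition subunit of the ligase that degrades hydroxylated HIF alpha, had 10.27 and 10.13 in hypoxia, against 9.59 and 9.74 in normoxia. That difference of 0.53 had an unadjusted p just above 0.05 and no overlap. The HIF alpha subunit genes showed no separation: Hif1a was at 10.58 and 10.18 in hypoxia and 10.45 and 10.22 in normoxia, and Epas1, which encodes HIF-2 alpha, was at 13.37 and 12.99 in hypoxia and 13.53 and 13.27 in normoxia. Arnt, their partner, differed by -0.38 and the asparagine hydroxylase gene Hif1an by -0.27. Over the 21 genes of the group 11 were higher and 10 lower, with a median of 0.03, and 2 were higher at an unadjusted p under 0.05 (1.43% of all genes).

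Siah2 was the second of those 2 genes. Its values were 9.29 and 8.87 in knockout cells in hypoxia, against 6.60 and 7.39 in knockout cells in normoxia, and 9.55 and 8.96 in wild-type cells in hypoxia, against 9.04 and 8.71 in wild-type cells in normoxia. The knockout normoxia samples were the low ones, and the other 6 samples lay between 8.71 and 9.55. The response was 2.08 in knockout cells (SE 0.35) and 0.38 in wild-type cells. The difference of the responses was 1.70, with a 95% interval of 0.49 to 2.91 and an unadjusted p under 0.05, and its adjusted p in limma was 1.00. One spot read the gene, and whether it lies within a deleted stretch is not stated in the labels, so it does not check the genotype. Siah1a was at 9.14 and 9.04 in hypoxia, against 9.44 and 9.16 in normoxia, and Siah1b at 8.17 and 8.41 in hypoxia, against 8.81 and 8.42 in normoxia. Both were lower without overlap, by 0.21 and 0.33 in the means (p above 0.05), and their near-identical sequences may share signal. Siah3 lay at 4.86 and 5.49 in hypoxia and 5.31 and 5.30 in normoxia. Reported protein substrates of the ligases showed no common direction, with 7 of 18 genes higher and 11 lower and a median of -0.04. Apart from Egln3 and Kdm3a, the member at an unadjusted p under 0.05 was Numb, a regulator of Notch signalling, at 4.63 and 5.03 in hypoxia, against 5.35 and 5.60 in normoxia.

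**Figure D3:**
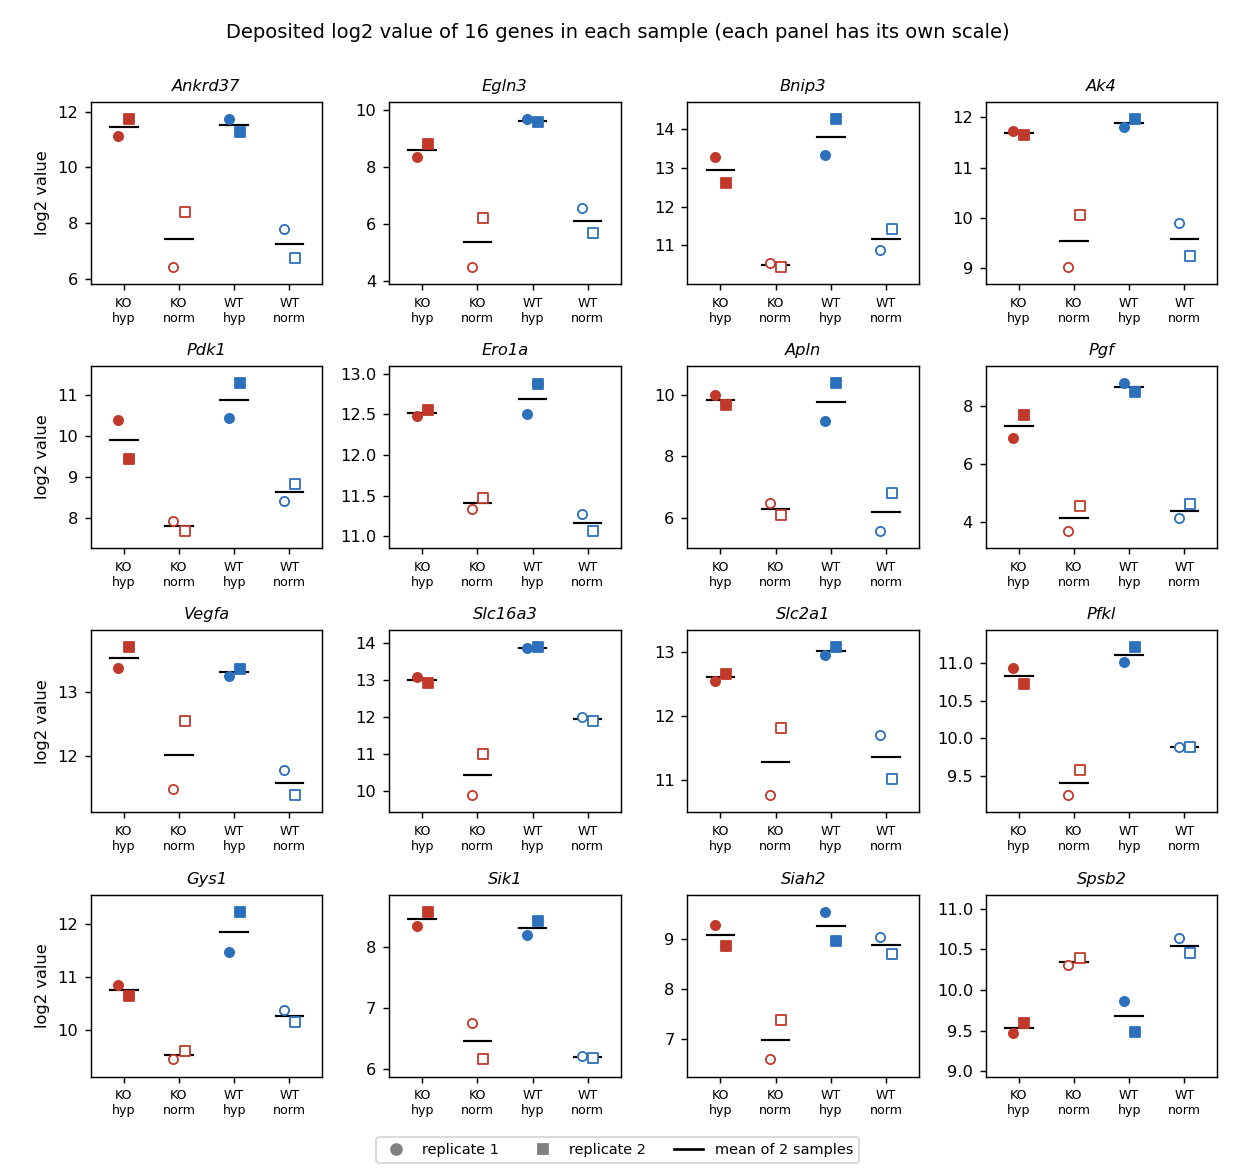
Deposited log2 value (vertical axis) of 16 genes in each sample, with knockout samples in red, wild-type samples in blue, hypoxia filled, normoxia open, and a black line at the mean of 2 samples. In 15 panels both knockout hypoxia samples lie above both knockout normoxia samples, and in the Spsb2 panel they lie below. The genes were picked with their values known, so this count follows from the choice. Among all genes tested, 10.2% lay above in this way and 11.4% below.

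Genes of glucose uptake and lactate export were led by a single carrier of each kind. Slc16a3, the lactate exporter MCT4, was at 13.09 and 12.94 in hypoxia, against 9.89 and 11.01 in normoxia, a difference of 2.56 (SE 0.36). It was 1.10 with the mean over spots, since a second spot with a mean of 2.69 differed by -0.36. Slc2a1, the basal glucose transporter GLUT1, was at 12.55 and 12.66 in hypoxia, against 10.77 and 11.81 in normoxia, a difference of 1.31 (SE 0.39), which was 0.79 without normoxia replicate 1. Neither pair of groups overlapped. Slc2a3, encoding the high-affinity transporter GLUT3, was dimmer and averaged 5.06 in hypoxia, against 4.31 in normoxia. The other lactate carrier Slc16a1 differed by 0.20 with overlapping groups, and the chaperone of both carriers, Bsg, by 0.36. Of 10 genes tested 6 were higher, with a median of 0.21, and 2 were higher at an unadjusted p under 0.05 (1.43% of all genes).

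Pfkfb3 and Pfkl had the widest differences among the spots chosen for the glycolytic enzymes. Pfkfb3, which makes the activator of phosphofructokinase, was at 11.77 and 11.07 in hypoxia, against 9.85 and 9.75 in normoxia, a difference of 1.62 (SE 0.36), and of 0.80 with the mean over spots. Pfkl, the liver-type phosphofructokinase, was at 10.93 and 10.72 in hypoxia, against 9.24 and 9.57 in normoxia, a difference of 1.42 (SE 0.20). Both had their hypoxia samples above their normoxia samples, while the muscle-type gene Pfkm overlapped, with a difference of 0.06. Triose phosphate isomerase, Tpi1, was at 14.25 and 14.06 in hypoxia and 13.26 and 13.17 in normoxia, a difference of 0.94 (SE 0.21). Hexokinase Hk2 was at 10.07 and 10.34 in hypoxia, against 8.54 and 9.91 in normoxia (difference 0.98, p above 0.05), and Hk1 at 14.60 and 12.85 in hypoxia, against 14.47 and 14.46 in normoxia. The lower Hk1 mean thus came from hypoxia replicate 2. The second spot of Hk1, with a mean of 12.54, ran the other way and differed by 0.37. It was at 12.95 and 12.61 in hypoxia, against 12.33 and 12.49 in normoxia. The brightest enzymes sat at the top of the scale: Aldoa averaged 15.99 in hypoxia and 15.98 in normoxia, and Gapdh was at 15.95 and 15.94 in hypoxia, against 15.86 and 15.88 in normoxia. Dimmer spots of bright enzymes varied. The third spot of Eno1 differed by 1.57 and the second by 0.46, where the chosen one differed by 0.20. The second of Ldha differed by 0.84, where the chosen one differed by 0.22. The dimmest spot of Gapdh, with a mean of 13.33, differed by 0.37, against 0.08 at the chosen one. For Gpi1 the chosen spot differed by 0.34 and a second spot of similar brightness by 0.14. Its dimmer spots, with means of 12.16 and 10.16, differed by 0.44 and 0.49. The second spot of Pgk1 differed by 0.05, less than the chosen spot at 0.36. Whether the top of the scale limited any of these differences was not tested. Of 23 enzymes 19 were higher (46.8% of all genes) and 4 lower, 4 were higher at an unadjusted p under 0.05 (1.43% of all genes), and the median was 0.21. It was 0.13 without normoxia replicate 2 and 0.33 without hypoxia replicate 2, and also 0.33 when all spots of a gene were averaged.

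Pyruvate entry into mitochondria differed at 1 gene. Pdk1, the kinase that shuts off pyruvate dehydrogenase, was at 10.39 and 9.45 in hypoxia, against 7.94 and 7.69 in normoxia, a difference of 2.11 (SE 0.41). The groups were far apart, and of its 4 other spots 3 differed by 1.06 to 2.19 and 1 by 0.20, so that the mean over spots differed by 1.37. The related kinases Pdk2, Pdk3 and Pdk4 differed by 0.02, 0.24 and -0.07, and the complex's own subunits Pdha1, Pdhb and Dlat by -0.02, -0.07 and -0.09. Respiratory chain subunits were near 0, with 12 of 37 higher, a median of -0.03 and 0 at an unadjusted p under 0.05 (2.60% of all genes). Among mitochondrial isoform genes, Ndufa4l2, a HIF-induced relative of a cytochrome oxidase subunit, was at 9.15 and 6.28 in hypoxia, against 4.89 and 5.54 in normoxia. Its difference of 2.50 (SE 0.97) ran from 1.07 to 3.93 when 1 sample was left out, since the hypoxia samples were far apart.

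Of the glycogen genes, the synthase differed most clearly. Gys1, glycogen synthase, was at 10.85 and 10.65 in hypoxia, against 9.44 and 9.61 in normoxia, a difference of 1.23 (SE 0.29). Pygl, the liver-type phosphorylase that breaks glycogen down, was at 8.84 and 8.29 in hypoxia, against 7.89 and 7.43 in normoxia, a difference of 0.90 (p above 0.05). Neither gene's groups overlapped. Pgm1, which links glycogen to glycolysis, was at 12.97 and 12.16 in hypoxia and 11.85 and 11.86 in normoxia, and the branching enzyme Gbe1 differed by 0.36. Ppp1r3c, a scaffold that activates glycogen synthase, was high in 1 sample only, at 6.46 and 3.50 in hypoxia, against 3.07 and 3.04 in normoxia. In all 9 of 13 genes were higher (46.8% of all genes), 7 of them with no overlap (10.2% of all genes), the median was 0.35, and 1 was higher at an unadjusted p under 0.05 (1.43% of all genes).

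Ligands that act on vessels included some of the larger responses. Apln, the peptide hormone apelin, was at 9.99 and 9.68 in hypoxia, against 6.48 and 6.09 in normoxia, a difference of 3.55 (SE 0.53). Pgf, placental growth factor and a ligand of the receptor Flt1, was at 6.90 and 7.69 in hypoxia, against 3.70 and 4.57 in normoxia, a difference of 3.16 (SE 0.40). Vegfa, the main angiogenic factor, was at 13.36 and 13.68 in hypoxia, against 11.50 and 12.54 in normoxia, a difference of 1.50 (SE 0.36), which was 0.98 without normoxia replicate 1. In all of these both hypoxia samples were above both normoxia samples, and the 3 other spots of Vegfa differed by 1.25 to 1.47. The other Vegf genes were nearer 0: Vegfb differed by 0.41, Vegfc by -0.03 and Vegfd by 0.01. Angptl4, a secreted lipase inhibitor, was at 11.75 and 13.77 in hypoxia, against 10.25 and 13.32 in normoxia. Its values went more with the replicate number than with oxygen, and so did those of Ptgs2, the inducible cyclooxygenase, at 8.94 and 12.40 in hypoxia and 9.01 and 12.46 in normoxia. The vasodilator Adm was at 13.09 and 12.52 in hypoxia, against 12.71 and 11.65 in normoxia, with overlap. Over the 26 genes 16 were higher (46.8% of all genes), 3 of them at an unadjusted p under 0.05 (1.43% of all genes), and the median was 0.13.

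Enzymes that use oxygen to modify collagen and histones showed a few higher members. P4ha2, a catalytic subunit of collagen prolyl hydroxylase, averaged 12.07 in hypoxia, against 11.36 in normoxia, without overlap, a difference of 0.70 (SE 0.22). P4ha1 was at 11.33 and 11.17 in hypoxia, against 10.87 and 10.81 in normoxia (difference 0.41). The crosslinking enzymes did not separate: Lox was at 14.67 in both hypoxia samples and 14.34 and 15.03 in normoxia, and Plod2 differed by 0.25 with overlap. Across 25 collagen-modifying genes the median was 0.05, and across 22 collagen chains 0.06. Among histone demethylases of the JmjC family, Kdm3a, a HIF target, was at 9.88 and 9.22 in hypoxia, against 8.77 and 8.50 in normoxia (difference 0.92, and 0.59 without hypoxia replicate 1). Its relative Kdm3b ran the other way at a dim level, at 5.59 and 5.54 in hypoxia, against 5.97 and 6.30 in normoxia, and differed by -0.57, or by -0.24 with the mean over spots. The list's median was 0.05 over 19 genes, with 1 higher and 1 lower at an unadjusted p under 0.05 (1.43% and 1.17% of all genes).

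**Figure D4:**
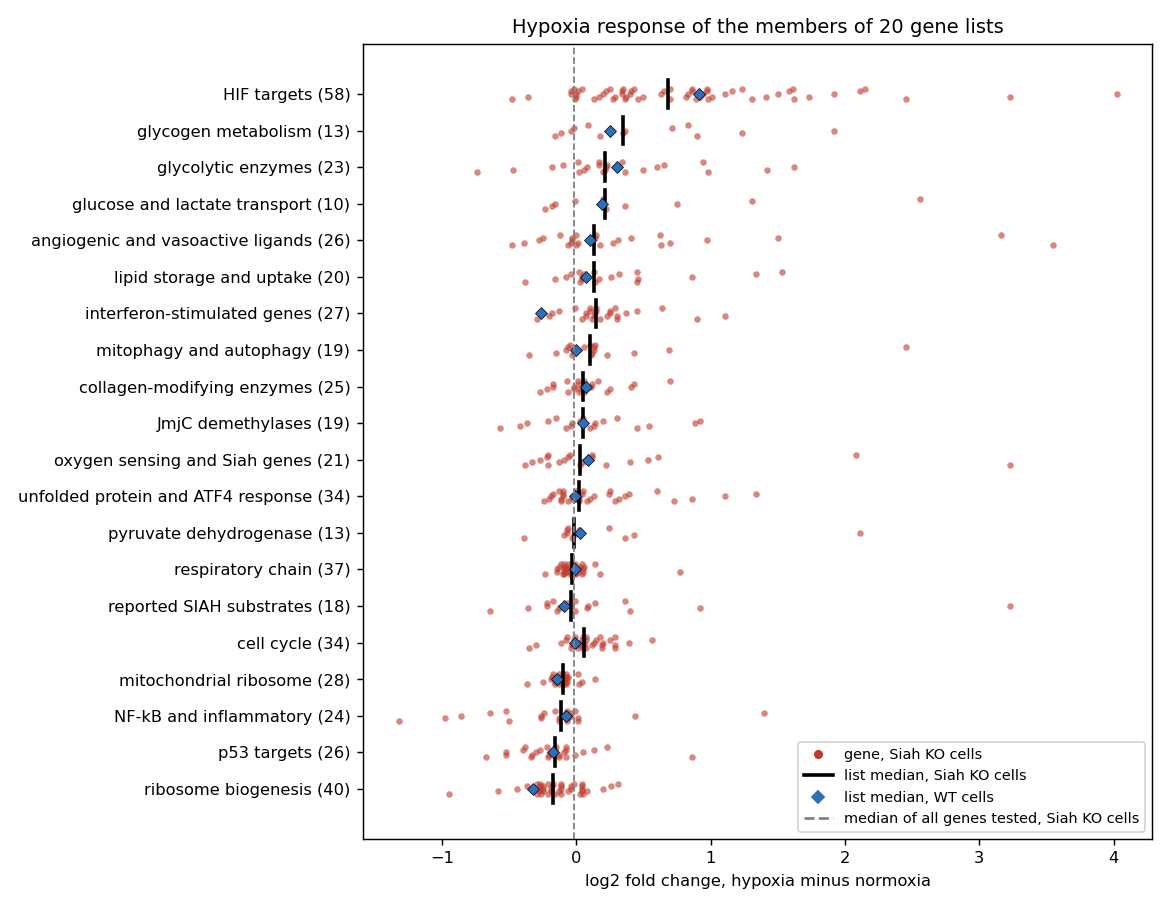
Log2 fold change (hypoxia minus normoxia, horizontal axis) of each member of 20 gene lists in knockout cells, with the number of genes in brackets, the list median in knockout cells as a black bar and in wild-type cells as a blue diamond. HIF targets have a median of 0.68 and ribosome biogenesis genes one of -0.17, against -0.02 for all genes (dashed line).

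Several lists lay below 0 by small amounts, where 46.8% of all genes were above 0 and the median over all genes was -0.02. Ribosome biogenesis genes, which build ribosomal subunits in the nucleolus, were lower in 30 of 40 cases, with a median of -0.17. Their mean log2 value went more with the replicate number than with oxygen: 10.05 and 10.77 in hypoxia, against 10.23 and 10.9 in normoxia. Mitochondrial ribosomal proteins were lower in 24 of 28, with a median of -0.10, and p53 targets in 22 of 26, with a median of -0.16. In none of the 3 lists was a member lower at an unadjusted p under 0.05 (1.17% of all genes). Both hypoxia samples lay below both normoxia samples in 1, 8 and 6 members of these lists, against 11.4% of all genes. Among p53 targets Gdf15, a stress cytokine, differed by -0.67 and Mdm2, the ligase of p53, by -0.20, while the cell cycle inhibitor Cdkn1a differed by 0.05. Ddit4, an inhibitor of mTOR signalling on the p53, HIF and ATF4 lists, was at 13.83 and 13.56 in hypoxia, against 12.82 and 12.86 in normoxia, a difference of 0.86 (SE 0.29). NF-kB and inflammatory genes were lower in 20 of 24, with a median of -0.11. At an unadjusted p under 0.05, 1 was higher and 1 lower (1.43% and 1.17% of all genes). The higher one was Ier3, at 12.50 and 11.86 in hypoxia, against 10.53 and 11.03 in normoxia, a difference of 1.40 (SE 0.39). The chemokine genes Ccl2 and Ccl7 differed by -0.86 and -0.98 with overlapping groups, and the growth factor gene Csf2, at a dim 3.41 and 2.87 in hypoxia, against 3.93 and 4.98 in normoxia, by -1.32, or by -0.79 without normoxia replicate 2.

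Interferon-stimulated genes were higher in 22 of 27 cases with a median of 0.15, but 0 of 27 had groups without overlap (10.2% of all genes higher and 11.4% lower). Their mean log2 value was 8.47 and 6.81 in hypoxia and 7.61 and 7.27 in normoxia, so that hypoxia replicate 1 was the highest and hypoxia replicate 2 the lowest of the 4. The unfolded protein and ATF4 response had a median of 0.02 over 34 genes, and the 4 at an unadjusted p under 0.05 (2.60% of all genes) were Trib3, Ddit4, Ero1a and Vldlr. Ero1a, an oxidase of the endoplasmic reticulum that HIF also induces, was at 12.48 and 12.55 in hypoxia, against 11.34 and 11.47 in normoxia, a difference of 1.11 (SE 0.20). Vldlr, a lipoprotein receptor, was at 10.00 and 9.68 in hypoxia, against 8.34 and 8.66 in normoxia, a difference of 1.34. Other lipid genes that were higher without overlap included Hilpda, an inhibitor of lipid breakdown, with a difference of 0.86 (p above 0.05), and Cd36, a fatty acid receptor, with 0.45. Cell cycle genes and heat shock genes had medians of 0.06 and -0.06, with 0 members at an unadjusted p under 0.05 (2.60% of all genes). Of the clock genes, the repressor Bhlhe40 was at 10.25 and 10.12 in hypoxia, against 8.27 and 8.94 in normoxia, a difference of 1.58, while Bhlhe41 was dim and differed by 0.00.

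Some of the smallest unadjusted p belonged to genes outside these lists. Sik1, a kinase of the AMPK family that acts on class II histone deacetylases, had the smallest of all, at 8.33 and 8.57 in hypoxia, against 6.75 and 6.16 in normoxia, a difference of 1.99 (SE 0.25). Itpk1, an inositol phosphate kinase, was at 8.34 and 7.98 in hypoxia, against 5.38 and 6.29 in normoxia, a difference of 2.33. Prelid2, of a family of mitochondrial lipid carriers, was at 9.74 and 9.15 in hypoxia, against 7.56 and 7.44 in normoxia, and its second spot differed by 1.97 where the first differed by 1.94. Prr15, a proline-rich protein, was at 7.34 and 7.14 in hypoxia, against 4.33 and 4.94 in normoxia, a difference of 2.61. Each of these groups was separate. Ak4, a mitochondrial adenylate kinase on the HIF list, was at 11.74 and 11.66 in hypoxia, against 9.03 and 10.07 in normoxia, a difference of 2.15. The diacylglycerol kinase gene Dgkg was dimmer, at 5.79 and 4.94 in hypoxia, against 2.98 and 3.12 in normoxia. Slfn3 and Tfap2d, also among the 15 higher genes with the smallest p, had means of 3.44 and 4.11 and differed by 1.21 and 1.04. Slfn3 passed the dim level of 3.39 only through its knockout hypoxia values of 4.14 and 4.27. Its other samples lay between 2.87 and 3.39, so its response is no support.

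The 15 lower genes with the smallest unadjusted p were all dim, with mean log2 values from 3.44 to 5.47. The lowest of these means lay just above the dim level of 3.39, and the knockout normoxia values enter them. The one with the widest difference was Wdr5b, a relative of the histone methylation cofactor WDR5, at 3.23 and 3.18 in hypoxia, against 5.02 and 5.71 in normoxia, a difference of -2.16 (SE 0.41). It differed by -1.51 in wild-type cells. Ceacam1, a cell adhesion molecule, was at 3.03 and 3.10 in hypoxia, against 4.63 and 4.16 in normoxia, and differed by -0.07 in wild-type cells. Zfp473 and Zfp575, which encode zinc finger proteins, differed by -0.88 and -0.97. Among genes with a mean of 8 or more, picked after their values were seen, the lower one with the smallest p was Spsb2, a ubiquitin ligase adaptor that binds inducible nitric oxide synthase. It was at 9.47 and 9.59 in hypoxia, against 10.31 and 10.39 in normoxia, a difference of -0.82 (SE 0.20), and -0.87 in wild-type cells. Foxc1, a forkhead transcription factor, was at 7.78 and 7.60 in hypoxia, against 8.53 and 8.19 in normoxia (difference -0.67). Elane and Dct, also on that list of 12, rested on hypoxia replicate 1, at 6.43 and 6.42, while their other 3 knockout samples lay between 8.03 and 8.84.

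A few of the widest differences were carried by 1 sample. Gm32947 was at 11.28 in hypoxia replicate 1 and 2.79 in replicate 2, against 2.42 and 2.62 in normoxia, and its 4 wild-type values lay between 2.60 and 3.02. Its difference of 4.52 had an SE of 2.41 and a p above 0.05. Capza3, 1700110I07Rik and Cyp2d37-ps had the same form, with hypoxia replicate 1 at 8.66, 9.35 and 9.38 and replicate 2 at 3.07, 2.75 and 2.28.

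The response of knockout cells was set against that of wild-type cells through the difference of the responses. None of the 17014 genes passed an adjusted p under 0.05 for it (0%), and 416 (2.45%) had an unadjusted p under 0.05, again with 851 expected by chance. Across the HIF targets the median response was 0.68 in knockout cells and 0.91 in wild-type cells. The difference was below 0 in 47 of 58, with a median of -0.20, and above 0 in 11 of 58, against 49.8% of all genes. That median was 0.03 without wild-type hypoxia replicate 2 and between -0.39 and -0.11 without any other sample. In wild-type cells 25 of the targets were higher at an unadjusted p under 0.05, against 2.24% of all genes. Interferon-stimulated genes split the other way, with a difference above 0 in 27 of 27 and a median of 0.45. Their wild-type means were 7.99 and 8.26 in hypoxia, against 7.73 and 9.05 in normoxia, where replicate 2 was the high sample.

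For several genes the interval of the difference of the responses included 0. For Bnip3 the difference of the responses was -0.19, with a 95% interval of -1.54 to 1.15, and for Egln3 it was -0.28, from -2.29 to 1.72. Apln differed by -0.02, from -1.84 to 1.80, and Vegfa by -0.20, from -1.45 to 1.05. These intervals span more than a 2-fold difference either way, so equal responses were not shown. Pgf was at 6.90 and 7.69 in knockout cells in hypoxia, against 8.78 and 8.49 in wild-type cells in hypoxia, and at 3.70 and 4.57 in knockout cells in normoxia, against 4.14 and 4.63 in wild-type cells in normoxia. The difference of its responses was -1.09, from -2.47 to 0.29. On the HIF list only Tet1, a DNA demethylase, had an unadjusted p under 0.05 for the difference, and it was dim: 5.05 and 4.86 in knockout cells in hypoxia, against 3.87 and 4.02 in normoxia, while the wild-type samples overlapped. The 8 highest and the 8 lowest differences at an unadjusted p under 0.01, which 0.511% of genes had, belonged to genes with means from 3.46 to 4.96.

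**Figure D5:**
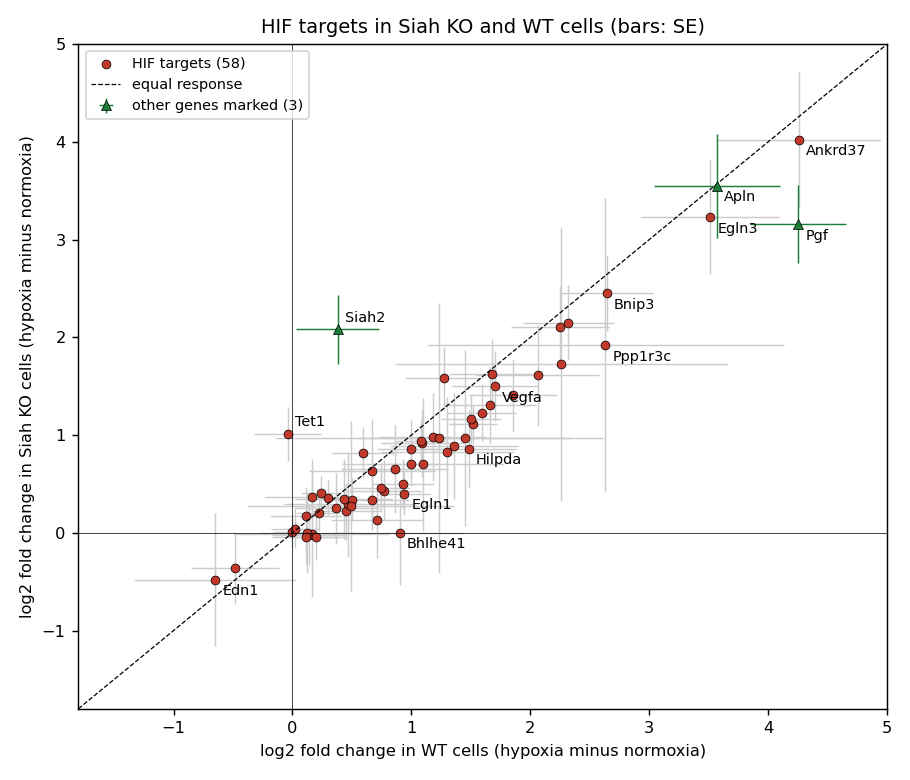
Log2 fold change (hypoxia minus normoxia) in knockout cells (vertical axis) against wild-type cells (horizontal axis) for the 58 HIF targets in red and 3 other genes in green, with bars for the SE and a dashed line for equal responses. Most HIF targets lie just below the line (47 of 58), and Siah2 lies above it, at 2.08 and 0.38.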

How the data were processed

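Labelled RNA of 8 samples was read on single-dye arrays, and the authors deposited 1 table of 62976 spots. The log2 values were made by the authors from Cy3 scans, with limma per the submitters' processing notes, and their log base was read from a range of 2.13 to 16.0. The background correction and normalization are not given in the sources used here, and each column had a median of 3.94. Of the spots, 43941 had 1 gene, 19035 none and 0 several in the platform annotation, with 33708 names updated by accession and 463 by synonym through RefSeq (GRCm38.p6) and 9770 kept. The spot with the highest mean stood for each of the 11040 genes with several. The dimmest 30% of 24306 genes (mean under 3.39) were removed. The deposited values were fitted in limma 3.58.1 (R 4.3.3) with a mean for each of 4 groups, 4 residual and 2.25 prior degrees of freedom, and Benjamini-Hochberg adjustment over 17014 genes. Of these, 3 had a missing value, and the fit dropped that sample for that gene. The fit was run on simulated data, where its mean estimates were checked against planted changes. How often planted changes were called is not reported here.

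Named genes were the 15 higher and 15 lower with the smallest p, up to 8 of each list at an unadjusted p under 0.05 or else the 2 with the smallest p, the Siah and oxygen-sensing genes, the 8 highest and 8 lowest differences of responses, up to 4 genes carried by 1 sample, and HIF targets with the smallest p for promoters. Other genes named in the text were chosen after their values were seen. The genes, lists and tests were chosen with earlier results of these data known. The number of arrays limits the precision.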

Additional observations from a re-analysis of the deposited data

How the results depend on the processing

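The count of 0 called genes held under quantile normalization, a shift to a common median, no filter, removal of the dimmest 50%, the mean over spots, a variance trend, a robust fit, array weights and a fit of the knockout samples alone. Leaving out 1 sample gave 0 to 7 called genes for knockout cells and 0 to 7 for the difference of the responses. The 7 arose without hypoxia replicate 2 of the knockout cells where the lone hypoxia sample is assumed to vary like the other groups. The count at an unadjusted p under 0.05, 443, was 731 with no filter, 207 with the dimmest 50% removed, 272 with a variance trend and 100 among genes with a mean of 8 or more, a setting added after seeing the data; without 1 sample it ran from 440 to 596. The filters change how many genes are tested, and for the variance trend the cause was not tested. The HIF target median of 0.68 ran from 0.45 to 0.76 without 1 sample, and the glycolysis median of 0.21 from 0.13 to 0.33, and it was 0.33 with the mean over spots. The HIF difference of -0.20 ran from -0.39 to 0.03. Same-numbered knockout samples deviated together (correlation 0.34), as did wild-type ones (0.31), but the labels do not say what they share. Their values correlated at 0.9865 and 0.9894 in knockout cells, against 0.9801 between the hypoxia samples and 0.9821 between the normoxia samples. In wild-type cells they correlated at 0.9843 and 0.9865, against 0.9808 and 0.9781. The main fit did not pair them. A replicate block within genotype raised the count to 870 and a block over all samples gave 411, with 0 called and the medians of 0.68 and 0.21 kept. Of the genes named by the rule, 13 turned sign when 1 sample was left out, among them Hif1a, Siah3 and Cmpk2, and 3 only under another setting.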
